A study of Mus musculus with 23 samples.

Results

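In this series, 8 long noncoding RNA genes were followed in single mouse bone marrow-derived mesenchymal stem cells (mMSCs) and single HL-1 cardiomyocytes (HL1cm): Malat1, Neat1, Meg3, H19, Gas5, Snhg1, Snhg3 and Snhg8. They were chosen by gene symbol, by a rule that uses no measured value although earlier results of these data were known, and each had 1 row among the 23284 genes of the deposited table. The 7 genes other than H19 were at 1 FPKM or more (in FPKM, fragment numbers are scaled by exon length and by all mapped fragments) in at least 2 of the single cells, a filter that 11850 genes passed. The 23 RNA-seq libraries came from 16 single mMSCs, 5 single HL1cm and a population control for each cell type (mMSC-PC and HL1cm-PC). The mMSCs were purchased cells of male mice aged 3 months, used at passages 6 to 11. HL-1 is a line of mouse atrial cardiomyocytes, used at passages 70 to 85, and the labels give strain C57BL/6J for every library. No library carried a genetic change or drug treatment by its label, but the cell types were grown in different media, norepinephrine being part of the HL1cm medium, and only the HL1cm were stained with a green dye before a shared Fluidigm C1 device captured both. The comparisons ask how the level of each gene varied from cell to cell, between the cell types, and between single cells and a bulk sample.

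Long noncoding RNAs act as RNA and are not translated into protein. Malat1 and Neat1 stay in the nucleus, where Malat1 gathers in nuclear speckles rich in splicing factors and the long form of Neat1 forms the scaffold of paraspeckles. Meg3 and H19 are imprinted genes expressed from the maternal chromosome and are abundant in embryonic tissue. Gas5, Snhg1, Snhg3 and Snhg8 are host genes: small nucleolar RNAs (snoRNAs), which guide the chemical modification of ribosomal RNA, are cut from their introns, while the spliced host RNA is often short-lived.

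In the GENCODE M21 annotation of mm10, Malat1 (chr19:5795690-5802672, minus strand) and Neat1 (chr19:5824708-5845478, minus strand) are neighbours, each with a longest transcript of 1 exon, of 6983 and 20771 bases. Meg3 lies at chr12:109541001-109571726 on the plus strand and H19 at chr7:142575529-142578143 on the minus strand. The host genes are Gas5 (chr1:161034422-161038539, plus strand), Snhg1 (chr19:8723475-8726443, plus strand), Snhg3 (chr4:132348014-132353686, minus strand) and Snhg8 (chr3:123507552-123508404, minus strand). The sequence around the start of a gene holds the core promoter, and RefSeq (GRCm38.p6) gave sequences of 250 bases before to 50 bases after an annotated start for 6 of the 8 genes, Malat1, Meg3, Gas5, Snhg1, Snhg3 and Snhg8. Those of Malat1 and the host genes are shown because these genes were above 0 in most single cells. Capitals mark, on either strand, the TATA box motif TATAAA, the CCAAT box, the GC box motif GGGCGG and the ETS factor motif CGGAAG, and position 1 is the first transcribed base. Gas5 has a pair of annotated starts, of which the one further along the gene is shown.
Malat1, chr19:5802623-5802922, minus strand: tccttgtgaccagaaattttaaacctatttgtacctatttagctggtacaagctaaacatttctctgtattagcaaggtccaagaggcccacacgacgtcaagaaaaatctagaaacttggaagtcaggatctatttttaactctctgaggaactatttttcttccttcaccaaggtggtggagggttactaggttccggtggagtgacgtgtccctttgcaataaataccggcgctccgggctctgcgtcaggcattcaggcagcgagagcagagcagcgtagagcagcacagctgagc
Gas5, chr1:161034916-161035215, plus strand: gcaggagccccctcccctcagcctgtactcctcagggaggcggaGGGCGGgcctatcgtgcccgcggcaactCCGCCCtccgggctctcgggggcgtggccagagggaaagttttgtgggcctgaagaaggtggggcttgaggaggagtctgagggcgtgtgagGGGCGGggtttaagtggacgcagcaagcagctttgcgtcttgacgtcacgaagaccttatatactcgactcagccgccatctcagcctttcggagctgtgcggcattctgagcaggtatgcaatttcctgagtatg
Snhg1, chr19:8723237-8723536, plus strand: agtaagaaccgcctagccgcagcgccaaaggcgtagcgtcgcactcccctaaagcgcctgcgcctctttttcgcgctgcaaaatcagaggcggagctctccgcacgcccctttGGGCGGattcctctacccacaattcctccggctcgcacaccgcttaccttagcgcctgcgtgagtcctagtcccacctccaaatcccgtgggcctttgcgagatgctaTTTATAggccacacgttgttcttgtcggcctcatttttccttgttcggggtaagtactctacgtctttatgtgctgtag
Snhg3, chr4:132353637-132353936, minus strand: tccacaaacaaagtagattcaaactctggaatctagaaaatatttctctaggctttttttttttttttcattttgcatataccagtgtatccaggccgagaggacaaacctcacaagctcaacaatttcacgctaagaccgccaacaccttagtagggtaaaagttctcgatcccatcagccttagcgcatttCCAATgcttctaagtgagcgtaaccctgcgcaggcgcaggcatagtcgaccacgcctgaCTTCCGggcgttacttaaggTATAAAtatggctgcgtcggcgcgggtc
Snhg8, chr3:123508287-123508586, minus strand: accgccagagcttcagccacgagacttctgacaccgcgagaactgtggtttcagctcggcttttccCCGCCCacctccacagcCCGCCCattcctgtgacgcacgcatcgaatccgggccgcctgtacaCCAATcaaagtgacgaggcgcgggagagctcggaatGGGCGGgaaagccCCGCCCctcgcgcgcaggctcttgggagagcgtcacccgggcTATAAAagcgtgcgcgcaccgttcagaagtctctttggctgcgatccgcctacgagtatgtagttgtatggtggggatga

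The Malat1 sequence held none of the 4 capitalised motifs. The TATA box motif, which reads TTTATA on the other strand, was found in 13.6% of 32851 RefSeq promoters of the same length and lay at position -30 of Snhg8, at -29 on the other strand of Snhg1 and at 23, after the start, in Snhg3. The GC box motif, or CCGCCC on the other strand, in 35.7% of promoters, occurred in Gas5, Snhg1 and Snhg8, and not in Snhg3. The CCAAT box, or ATTGG on the other strand, in 37.4%, occurred in Snhg3 and Snhg8, and the ETS factor motif, or CTTCCG on the other strand, in 16.9%, occurred in Snhg3 at position 3. The shorter motif CTTTT, the motif CTTCC (which overlaps the ETS factor motif) and the motif CTCTT were also searched for on both strands and were each in 53.6% to 71.4% of promoters. A start at C followed by at least 4 bases that are C or T, a feature searched for after the sequences had been seen, occurred in 2.51% of promoters, and the shown starts of Gas5 and Snhg8 had it. The other annotated start of Gas5 began with G and lacked it, and the sequence around that start held the ETS factor motif at position 28. Snhg1 started with C and 2 more such bases, and Snhg3 started with G. These matches describe the letters only.

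The markers of each labelled cell type were high in its own libraries. The summed level of 8 mesenchymal markers was 1283 to 5960 FPKM in single mMSCs and 162 to 835 FPKM in single HL1cm, although Thy1 was listed at 0 in every mMSC library. The summed level of 9 cardiomyocyte markers was 0 to 65.4 FPKM in mMSCs and 30730 to 57379 FPKM in HL1cm. Of 11 macrophage markers, 5 (Ptprc, Emr1, Lyz2, Aif1 and Laptm5) were at 0 in all mMSCs, and the other 6 (Cd68, Csf1r, Cd14, Itgam, Cx3cr1 and Fcer1g) were above 0 in at least 1 mMSC. Their sum was 3.10 to 369 FPKM in mMSCs, 133 FPKM in mMSC-PC, with Cd68, Csf1r, Cd14 and Itgam above 0, and 0 to 1.10 FPKM in HL1cm, and its part in the differences between the cell types was not tested. Of 5 endothelial markers, 4 were at 0 in all mMSCs, with a sum of 0 to 10.8 FPKM. The number of genes reaching 1 FPKM was 5178 to 7241 for the mMSCs, 6428 to 7010 for the HL1cm, 9625 for mMSC-PC and 9881 for HL1cm-PC. A value of 0 need not mean that a transcript was absent, since Tbp, a gene that every cell uses, was also listed at 0 in some libraries. For that reason the text says only that a gene was listed at 0.

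**Figure D1:**
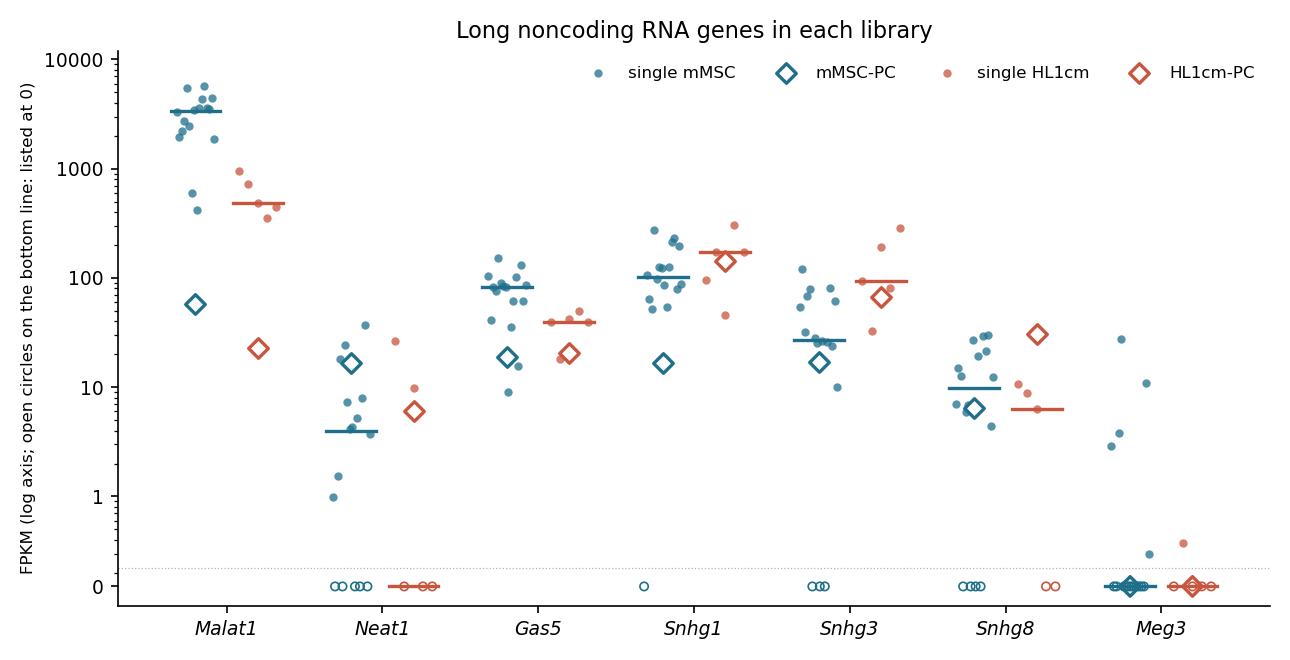
FPKM of 7 long noncoding RNA genes (log axis) in each single mMSC (blue circles, n = 16), each single HL1cm (red circles, n = 5) and the population control of each cell type (diamonds), with lines at the medians of the single cells and open circles for cells listed at 0. Malat1 is above 0 in every library, with both diamonds below all single cells of their type, and apart from Gas5, also above 0 throughout, the other 5 genes have cells listed at 0.

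Malat1 had the highest FPKM of the 8 genes in all 21 single cells. Its level in single mMSCs had a lowest value of 416 FPKM, a median of 3354 FPKM and a highest value of 5701 FPKM, with a mean of 3097 ± 1510 FPKM (SD, n = 16). The 5 HL1cm had 351, 949, 726, 489 and 442 FPKM in HL1cm1 to HL1cm5, with a mean of 591 ± 243 FPKM (SD, n = 5). In 14 of the 16 mMSCs Malat1 was above the highest HL1cm, and in mMSC5 (596 FPKM) and mMSC13 (416 FPKM) it was within the range of HL1cm, so the groups overlapped. Among all 23284 genes, Malat1 ranked between 11 and 297 in single mMSCs, with a median rank of 23, and between 137 and 368 in single HL1cm, with a median rank of 180.

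On the log2 scale, with values under 1 FPKM set to 1, mean Malat1 was 2.22 higher in mMSCs than in HL1cm, or 4.67-fold, with SDs between cells of 1.05 and 0.58. Each cell type is 1 sample, since no separate cultures are named, so this and every other comparison is a description without a test, and the spread is that between cells of 1 culture. Of the 11850 genes, 21.4% were at least 2-fold higher in mMSCs and 21.6% at least 2-fold lower. Of the 7 noncoding genes, 1 (Malat1) was at least 2-fold higher and 1 (Snhg3) at least 2-fold lower, with a median difference of 0.73 against 0.084 over all genes. That median is the value of Meg3, which was listed at 0 in most cells, and Meg3 was at 0.10 with a floor of 10 FPKM and at 0.46 without mMSC16. None of the 7 had all mMSCs above all HL1cm, as 2.26% of all genes did, or all mMSCs below all HL1cm, as 1.88% did.

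Among mMSCs Malat1 varied more than genes of similar level. Its SD of 1.05 log2 units compares with a median of 0.47 and quartiles of 0.39 and 0.59 over the 70 genes whose mean log2 FPKM was within 1 unit of its own. The SD was 0.80 without mMSC13 and 0.91 without mMSC5, the cells with the lowest values. The other 14 mMSCs were between 1867 and 5701 FPKM. How far the larger spread rests on mMSC5 and mMSC13 together was not tested. In HL1cm its SD of 0.58 was close to the median of 0.59 over 254 genes of similar level.

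The population controls gave a different picture of Malat1. It was at 58.1 FPKM in mMSC-PC, below all 16 single mMSCs, and at 22.9 FPKM in HL1cm-PC, below all 5 single HL1cm. The mean of the single cells was 53.3-fold above mMSC-PC and 25.9-fold above HL1cm-PC, and even the lowest cell exceeded its control by 7.17-fold and 15.3-fold. Of all genes, 1.99% had every mMSC above mMSC-PC and 2.37% had every HL1cm above HL1cm-PC, and Malat1 alone of the 7 was in both sets. Only 24 of the 11850 genes had a lower ratio of mMSC-PC to single mMSCs than Malat1, and 28 had a lower ratio of HL1cm-PC to single HL1cm.

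The gap was not shared by most abundant genes. Over the 985 genes with a mean of at least 100 FPKM in single mMSCs the median log2 ratio of mMSC-PC to single cells was -0.34, against -5.74 for Malat1, and 21 of them were lower than Malat1. Over 960 such genes in HL1cm the median was 0.24, against -4.69 for Malat1, and 11 were lower. By rank, Malat1 was at place 1647 in mMSC-PC and 4077 in HL1cm-PC. The labels describe the controls as processed like single cells but from bulk material. Whether this was done on the chip is not given in the sources used here, so the part of their preparation in these gaps was not tested. In a bulk sample fewer cells expressing a gene and less RNA per cell cannot be told apart.

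Runs of A were sought in the longest annotated transcript of each gene only. The longest run was 12 A in Malat1, 16 in Meg3, 7 in Neat1, 5 in Gas5, Snhg1 and Snhg8, and 4 in H19 and Snhg3. The run of Malat1 covers positions 6674 to 6685 of its 6983-base transcript, 298 bases before its end, and is shown in capitals within positions 6624 to 6735.
Malat1 transcript: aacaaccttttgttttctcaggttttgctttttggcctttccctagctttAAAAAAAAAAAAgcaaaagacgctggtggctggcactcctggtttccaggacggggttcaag

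**Figure D2:**
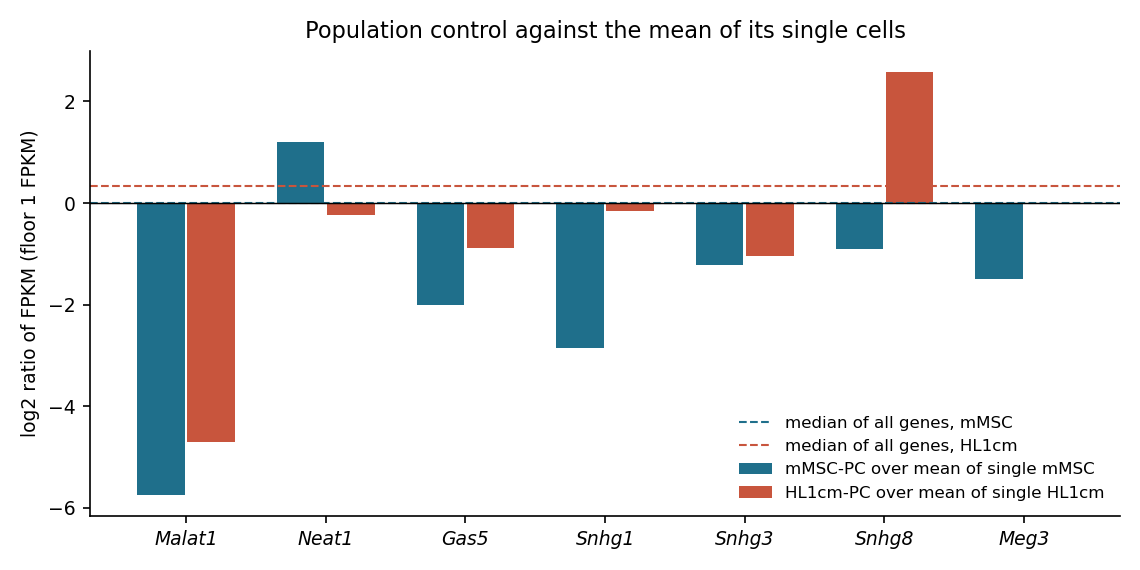
Log2 ratio of the FPKM of the population control to the mean FPKM of the single cells, with a floor of 1 FPKM, for 7 noncoding genes in mMSC (blue) and HL1cm (red); dashed lines mark the median of all 11850 genes, at 0 in mMSC and 0.34 in HL1cm. Malat1 lies at -5.74 and -4.69, far below both lines, and Snhg8 in HL1cm at 2.58, above its line.

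Across the 7 genes, 5 were at least 2-fold lower in mMSC-PC than in the mean of single mMSCs (Malat1, Meg3, Gas5, Snhg1 and Snhg3), against 17.5% of all genes. Neat1 alone was at least 2-fold higher, against 22.7% of all genes. In HL1cm-PC, 2 were at least 2-fold lower (Malat1 and Snhg3), against 11.4%, and 1 was at least 2-fold higher (Snhg8), against 33.4%. The median log2 ratio of the 7 genes was -1.497 in mMSC and -0.24 in HL1cm, against 0 and 0.34 over all genes. The first is the value of Meg3, which was listed at 0 in mMSC-PC and was at -0.25 without mMSC16. The second is the value of Neat1, which was at 1.32 without HL1cm3. Because the filter used single cells only, genes seen only in a population control were not among those compared.

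Neat1, the other nuclear RNA, had far lower FPKM. It was above 0 in 11 of 16 mMSCs (68.8%, exact 95% interval 41.3% to 89.0%) and in 2 of 5 HL1cm (40.0%, 5.27% to 85.3%), intervals that cover counting error only. Its lowest, median and highest values in single mMSCs were 0, 3.93 and 37.0 FPKM, and in HL1cm it was at 9.74 FPKM in HL1cm2, at 26.3 FPKM in HL1cm3 and at 0 in the others. The groups overlapped, and mean log2 Neat1 was 0.21 higher in mMSCs, with SDs of 1.81 and 2.25. This direction did not hold, as the difference was -0.19 without HL1cm1, HL1cm4 or HL1cm5 and 0.99 without HL1cm3, while mean FPKM was 7.18 in mMSCs and 7.21 in HL1cm. The highest mMSCs were mMSC4, mMSC2 and mMSC3, with 37.0, 24.5 and 18.1 FPKM, and they alone exceeded mMSC-PC, where Neat1 was at 16.6 FPKM. HL1cm-PC had 6.09 FPKM. The log2 ratio of HL1cm-PC to the mean of single HL1cm was -0.24, and without HL1cm3 it was 1.32. In mMSC the ratio of 1.21 turned to -0.38 when libraries were rescaled to Gapdh. The median ratio of all genes fell with it, from 0 to -0.88, and Neat1 stayed above that median.

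The mMSCs in which Neat1 was listed at 0 were the 5 libraries with the highest low tail, measured as the 5th percentile of FPKM above 0. That percentile was 2.72 in mMSC9, 2.32 in mMSC15, 1.65 in mMSC1, 1.53 in mMSC8 and 1.25 in mMSC16, and between 0.74 and 1.18 in the other 11 mMSCs, all of which had Neat1 above 0. In a library with a higher percentile, the smallest values listed above 0 were larger. Its part in the Neat1 values was not tested.

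**Figure D3:**
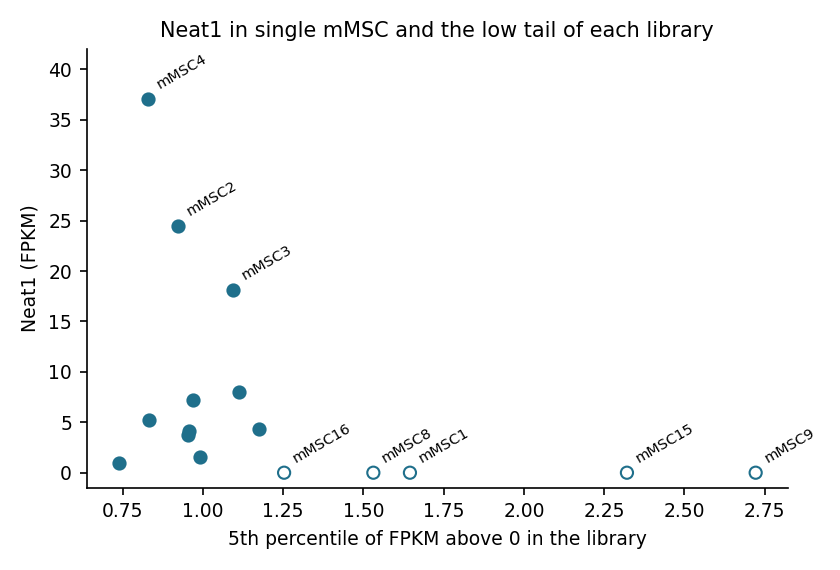
Neat1 (FPKM) in each of the 16 single mMSCs against the 5th percentile of FPKM above 0 in the same library; open circles are libraries with Neat1 listed at 0. The 5 open circles have the highest percentiles, from 1.25 to 2.72, and the 3 highest Neat1 values, 18.1 to 37.0 FPKM, lie below 1.18.

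Of the imprinted genes, H19 was listed at 0 in all 23 libraries. For 16 mMSCs this allows a share of cells above 0 of up to 18.8% and for 5 HL1cm of up to 60.0%, taking 3 cells as the limit that a count of 0 allows, and the exact upper limits are 20.6% and 52.2%. Meg3 was above 0 in 5 of 16 mMSCs (31.3%, exact 95% interval 11.0% to 58.7%) and in 1 of 5 HL1cm (20.0%, 0.51% to 71.6%). The values were 27.4 FPKM in mMSC16, 10.8 in mMSC14, 3.79 in mMSC4, 2.90 in mMSC11 and 0.30 in mMSC13, and 0.37 FPKM in HL1cm1. Meg3 was thus above 0 in a minority of the cells of either type and was listed at 0 in both population controls, so its low ratio in mMSC-PC rests on the floor of 1 FPKM and on mMSC16, without which the log2 ratio was -0.25.

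A list of 18 genes held neighbours of Meg3 and H19, other imprinted genes and receptors of insulin-like growth factors, not all of them imprinted. Of these, 8 passed the filter, and 3 were at least 2-fold higher and 2 at least 2-fold lower in mMSCs than in HL1cm, against 21.4% and 21.6% of all genes. Among the higher ones, Tnnt3 was listed at 0 in all HL1cm and passed the filter through mMSCs alone. The lower ones are protein-coding neighbours of H19 and not established imprinted genes. Lsp1, which codes for an actin-binding protein, had a median of 13.4 FPKM in mMSCs (range 0 to 100.1) and of 111 FPKM in HL1cm (37.3 to 278), a log2 difference of -3.44. Mrpl23, a mitochondrial ribosomal protein gene, had medians of 35.5 FPKM (0 to 114) and 124 FPKM (73.6 to 326), a log2 difference of -2.65 with 3 of 16 mMSCs listed at 0. In both, the ranges overlapped. Dlk1 and Rtl1, protein-coding genes of the Meg3 domain, were listed at 0 in all libraries, and Rian, a noncoding gene of the domain, was above 0 in 2 mMSCs, at 4.86 FPKM or less, and in both controls, at 0.64 FPKM in mMSC-PC and 1.06 FPKM in HL1cm-PC. Mirg, the last noncoding gene there, was above 0 only in mMSC-PC, at 2.94 FPKM. Igf2, the growth factor gene next to H19, was at 0 in all mMSCs, at 2.26 FPKM or less in HL1cm (above 0 in 2 cells) and at 13.6 FPKM in HL1cm-PC.

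Gas5, a snoRNA host whose spliced RNA accumulates in growth-arrested cells, was above 0 in all 21 single cells. Single mMSCs had a lowest value of 9.12 FPKM, a median of 82.1 FPKM and a highest value of 152 FPKM, with a mean of 75.9 ± 38.5 FPKM (SD, n = 16). The 5 HL1cm had 39.6, 41.8, 39.3, 50.2 and 18.1 FPKM, with a mean of 37.8 ± 11.8 FPKM (SD, n = 5). In 12 mMSCs the level was above the highest HL1cm, and in mMSC8 (15.6 FPKM) and mMSC15 (9.12 FPKM) it was below the lowest. Mean log2 Gas5 was 0.81 higher in mMSCs, below the 2-fold limit, with SDs of 1.08 and 0.57. It passed that limit with a common FPKM sum (1.14), with Gapdh scaling (1.14) and with the median of the cells (1.05). With libraries rescaled to a common median it was 0.55. Both low cells were among the 5 libraries with a high low tail, and without those 5 (an alternative chosen after the data had been seen) the difference was 1.20 and the SD in mMSCs was 0.57. The controls were alike, at 18.8 FPKM in mMSC-PC and 20.4 FPKM in HL1cm-PC, and lay below 14 of 16 mMSCs and 4 of 5 HL1cm.

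Snhg1, host of a cluster of box C/D snoRNAs, was above 0 in 15 of 16 mMSCs and all HL1cm. Its values in mMSCs were 51.5 to 272 FPKM, with a median over all 16 cells of 102 FPKM, apart from mMSC15, where it was listed at 0. The HL1cm had 95.7, 174, 45.7, 174 and 303 FPKM, with a mean of 159 ± 97.6 FPKM (SD, n = 5), and the ranges overlapped. Mean log2 Snhg1 was 0.66 lower in mMSCs, 0.23 lower without mMSC15 and 1.04 lower without HL1cm3, the HL1cm with the lowest value. The SD in mMSCs was 1.85 with mMSC15 and 0.75 without it. In mMSC-PC Snhg1 was at 16.5 FPKM, below the 15 mMSCs above 0 and 7.23-fold below their mean with mMSC15 included, whereas in HL1cm-PC it was at 142 FPKM, within the range of single HL1cm. The log2 ratio of control to single cells was -2.85 in mMSC and -0.15 in HL1cm, and the difference between them was not tested.

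Snhg3, host of H/ACA snoRNAs, went the other way from Malat1. Single mMSCs had a lowest value of 0, a median of 27.2 FPKM and a highest value of 120.2 FPKM, and the HL1cm had 81.4, 191, 32.8, 284 and 94.0 FPKM. All 5 HL1cm were above the median mMSC, 2 were above the highest mMSC, and 10 mMSCs were below the lowest HL1cm, so the groups overlapped in part. Mean log2 Snhg3 was 2.41 lower in mMSCs, or 5.33-fold higher in HL1cm, with SDs of 2.32 and 1.20. The cells listed at 0 were mMSC4, mMSC9 and mMSC13, and without any 1 of the 21 cells the difference stayed between -2.06 and -2.84. The direction was the same in the controls, where Snhg3 was at 17.0 FPKM in mMSC-PC and 66.4 FPKM in HL1cm-PC. The ratio of HL1cm-PC to single HL1cm, -1.04 on the log2 scale, was -0.89 without HL1cm2 and -0.59 without HL1cm4, short of 2-fold. That of mMSC-PC to single mMSCs, -1.22, stayed between -1.01 and -1.32 without any 1 cell. It was short of 2-fold with a common FPKM sum (-0.71) and with the median of the cells (-0.68), and was -2.59 with Gapdh scaling.

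Rcc1, which codes for a chromatin-bound exchange factor of the GTPase Ran, overlaps Snhg3 on the same strand, so the counting may have split reads between them. Rcc1 was above 0 in 1 mMSC, at 32.0 FPKM in mMSC4, where Snhg3 was listed at 0, in HL1cm1, HL1cm4 and HL1cm5, at 24.6 FPKM or less, and in both controls, at 19.3 FPKM in mMSC-PC and 63.1 FPKM in HL1cm-PC. The level of Snhg3 is therefore uncertain in these libraries. Zbtb37 overlaps the start of Gas5 on the opposite strand and was at 16.6 FPKM or less in single cells. Rows for small RNAs inside the host genes were above 0 in single libraries only: Mir5117, inside Gas5, at 1809 FPKM in mMSC2, Snord47, inside Gas5, at 34055 FPKM in HL1cm1 and Snord22, inside Snhg1, at 1264 FPKM in mMSC5. Snora24, inside Snhg8, was listed at 0 throughout, as were Mir675 in H19 and Mir770 and Mir1906-1 in Meg3.

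Snhg8, host of an H/ACA snoRNA, had the lowest mean of the 4 host genes in single cells of both types, though in HL1cm-PC it was above Gas5. It was above 0 in 12 of 16 mMSCs, with a lowest value of 0, a median of 9.78 FPKM and a highest value of 29.7 FPKM, and in HL1cm it was at 8.78, 6.35 and 10.7 FPKM in HL1cm1, HL1cm2 and HL1cm4 and at 0 in the others. The groups overlapped, with 8 mMSCs above the highest HL1cm. Mean log2 Snhg8 was 0.95 higher in mMSCs, close to the 2-fold limit, which it passed without mMSC7, mMSC12, mMSC13 or mMSC15 (each 1.13), HL1cm1 (1.27), HL1cm2 (1.15) or HL1cm4 (1.34). It was 0.49 without HL1cm3 or HL1cm5, and 0.57 when medians of the cells were compared. HL1cm-PC was at 31.0 FPKM, above every single HL1cm and 5.99-fold above their mean, while mMSC-PC was at 6.42 FPKM, below 10 of 16 mMSCs.

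FPKM is scaled by length, so the genes were set in order of listed FPKM within a cell type. The order is that of the listed values only, since how fully each RNA was captured was not measured. The annotated transcripts of Neat1 span 711 to 20771 bases, and the level of Snhg3 is uncertain in libraries with Rcc1 above 0. In single mMSCs the order of mean FPKM was Malat1, Snhg1, Gas5, Snhg3, Snhg8, Neat1, Meg3 and H19. Malat1 was above Snhg1 in 16 of 16 cells, Snhg1 above Gas5, Gas5 above Snhg3 and Snhg3 above Snhg8 in 12 of 16 each, and Snhg8 above Neat1 in 8 of 16, so Snhg8 and Neat1 could not be ordered. In HL1cm the order was Malat1, Snhg1, Snhg3, Gas5, Neat1, Snhg8, Meg3 and H19, with Malat1 above Snhg1 and Gas5 above Neat1 in 5 of 5 cells. Neighbours held their order in fewer cells elsewhere, Snhg1 being above Snhg3 in 3 of 5 and Neat1 above Snhg8 in 2 of 5. In mMSC-PC the order began with Malat1 and in HL1cm-PC with Snhg1, Malat1 being the fourth there.

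Among the 16 mMSCs, the host genes Gas5 and Snhg1 had the highest Pearson correlation, though not the highest rank correlation, of any pair among the 6 genes that reached 1 FPKM in 8 mMSCs or more. Pearson's r of log2 FPKM was 0.71 and Spearman's rho 0.57, as a description over cells that share 1 culture and differ in depth. Without mMSC9 and mMSC15, which were picked because the study's alignment statistics gave them the fewest reads, r was 0.29, so the relation rested on these cells, of which mMSC15 was the lowest for both genes. Snhg1 and Snhg8 had r of 0.58 and the higher rho of 0.60, with r of 0.65 without these cells. Neat1 and Gas5 had r of 0.51 with and without them. Malat1 had r between -0.21 and 0.17 with the other 5 genes.

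**Figure D4:**
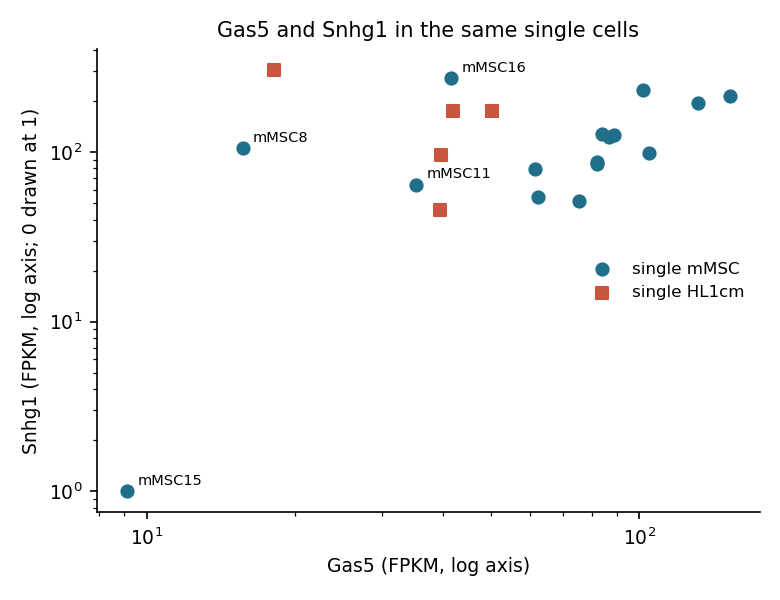
Snhg1 against Gas5 (FPKM, log axes) in 16 single mMSCs (blue circles) and 5 single HL1cm (red squares), with a Snhg1 value of 0 drawn at 1. The cell mMSC15 lies apart at the lower left, with Gas5 at 9.12 FPKM and Snhg1 listed at 0, while the other mMSCs have Snhg1 between 51.5 and 272 FPKM.

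The genes most like each noncoding gene over the 16 mMSCs were sought among the 6776 genes that reached 1 FPKM in 8 mMSCs or more, by Pearson's r of log2 FPKM. Malat1 was most like Syngr2 (0.82), a vesicle membrane protein gene, Cdk17 (0.82), a kinase gene, and Fermt2 (0.81), an integrin activator gene. Neat1 was most like Cd80 (0.90), which codes for a costimulatory ligand of T cells, 9130008F23Rik (0.80) and Gm13363 (0.79). Gas5 was most like Rpe (0.90), of the pentose phosphate pathway, and the chromatin genes Atrx and Hdac1 (both 0.85), and Snhg1 was most like Erdr1, Use1 and Tgif1 (0.92, 0.92 and 0.88). For Snhg3 the genes were Dusp19, Nfatc1 and Cuedc2 (0.84, 0.82 and 0.80), and for Snhg8 Smarcc2, Rfc3 and Dynll2 (0.80, 0.79 and 0.78). Such values are the highest of 6776 over 16 cells, and without mMSC9 and mMSC15 none of the 3 genes named for Malat1, Snhg1, Snhg3 or Snhg8 and 1 each of those named for Neat1 and Gas5 remained among the 3 most alike.

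Other noncoding genes were also compared between the cell types. Of 22 other snoRNA and small RNA host genes listed, 11 were in the table and 9 passed the filter, of which 4 were at least 2-fold higher in mMSCs and 1 was at least 2-fold lower, with a median log2 difference of 0.93, against 21.4%, 21.6% and 0.084 over all genes. Snhg5 had a median of 83.7 FPKM in mMSCs (31.2 to 205) and 15.2 FPKM in HL1cm (0 to 78.1), a difference of 3.46 in mean log2 FPKM. Only 3 of 5 HL1cm were above 0 for Snhg5, and the others were set to the floor. Snhg6 had medians of 229 FPKM in mMSCs (0 to 808) and 87.9 FPKM in HL1cm (0 to 274), a difference of 3.22 in mean log2 FPKM that includes 2 of 5 HL1cm listed at 0 and set to the floor. Snhg7 was above 0 in 8 of 16 mMSCs and listed at 0 in all HL1cm. Snhg12, also among the 4 higher genes, was above 0 in 5 mMSCs and listed at 0 in all HL1cm. Both passed the filter through mMSCs alone, so nothing is concluded from counting them as higher. Gm12238 was lower in mMSCs, with a log2 difference of -2.4995, but it was above 0 in only 5 mMSCs and 3 HL1cm. Of these 9 genes, 7 were at least 2-fold lower in mMSC-PC than in single mMSCs, where 17.5% of all genes were, and 3 of 9 were lower in HL1cm-PC, where 11.4% of all genes were. Among the 7, Snhg7, Snhg10 and Gm12238 were listed at 0 in mMSC-PC and above 0 in only 8, 3 and 5 mMSCs. Their ratios therefore rest on the floor, unlike those of Gas5 and Snhg1, which were above 0 in mMSC-PC.

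Of 45 other long noncoding genes listed, 25 were in the table and 16 passed the filter, with 5 at least 2-fold higher and 2 at least 2-fold lower in mMSCs and a median difference of 0.13. Pvt1, next to Myc, had medians of 23.5 FPKM in mMSCs and 11.4 FPKM in HL1cm, a difference of 1.61, and 1700020I14Rik had medians of 6.17 and 21.6 FPKM, a difference of -2.17. Rpph1, the RNA of ribonuclease P, was above 0 in 3 mMSCs and no HL1cm, and 2010204K13Rik in 7 mMSCs and 1 HL1cm, a difference of 1.31. In the lists together, 9 of 25 genes were at least 2-fold higher, 3 lower and 13 within 2-fold, against 21.4% higher and 21.6% lower over all genes. Among the 9, Snhg7, Snhg12, Dnm3os and Rpph1 were listed at 0 in all HL1cm and passed the filter through mMSCs alone. With a floor of 10 FPKM, 2 genes were higher and 1 lower, against 7.44% and 7.69% of all genes. None of the 25 had ranges that did not overlap, against 2.26% of all genes with every mMSC above and 1.88% with every mMSC below.

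**Figure D5:**
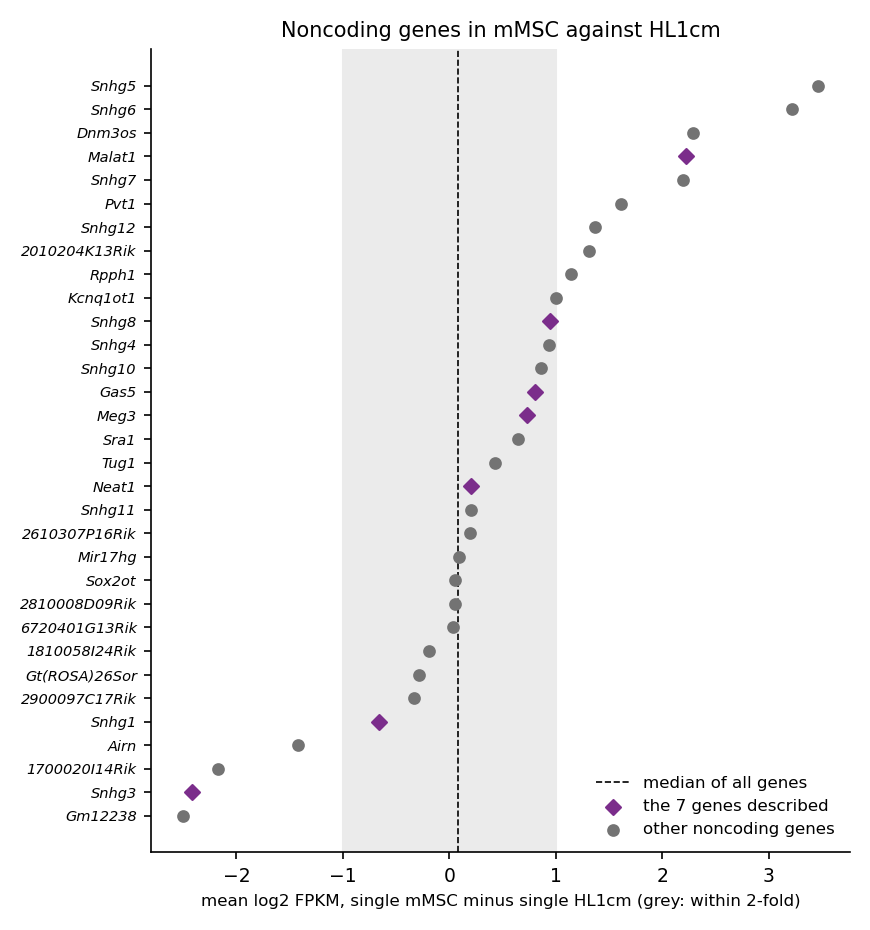
Difference of mean log2 FPKM between single mMSCs and single HL1cm for 7 noncoding genes (purple diamonds) and 25 other noncoding genes (grey circles), with the dashed line at the median of all genes, 0.084, and grey shading within 2-fold. Malat1 lies at 2.22 and Snhg3 at -2.41. Snhg7, at 2.196, was listed at 0 in all HL1cm and passed the filter through mMSCs alone. Gm12238, at -2.4995, was above 0 in only 5 mMSCs and 3 HL1cm. The places of Snhg7 and Gm12238 therefore depend on the floor of 1 FPKM.

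Genes for proteins that work with these RNAs were compared in the same way, beside the 21.4% of all genes at least 2-fold higher and the 21.6% at least 2-fold lower in mMSCs. Of 15 paraspeckle protein genes, which code for partners of Neat1, 3 were at least 2-fold higher and 2 at least 2-fold lower in mMSCs, among the latter Ewsr1, by 1.16 on the log2 scale, with medians of 45.3 and 97.8 FPKM. Among the higher ones, Hnrnph3 was listed at 0 in all HL1cm and passed the filter through mMSCs alone. Of 14 genes of nuclear speckle and splicing proteins, 0 were at least 2-fold higher and 2 lower, Srsf2 by 1.22 (medians 307 and 749 FPKM) and Rnps1 by 1.01 (56.7 and 95.2 FPKM). Against single cells of the same type, 5 of the 14 were at least 2-fold lower and 1 higher in mMSC-PC (17.5% and 22.7% of all genes), and 2 were lower and 2 higher in HL1cm-PC (11.4% and 33.4%). Srsf2, a splicing factor, was at 46.9 FPKM in mMSC-PC and 107 FPKM in HL1cm-PC, log2 ratios of -2.88 and -2.76.

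Spliced host RNAs are often degraded by nonsense-mediated decay, and of 12 of its factors 2 were at least 2-fold higher and 2 lower in mMSCs, against 21.4% and 21.6% of all genes. Upf3a was higher by 1.92, though above 0 in only 1 HL1cm, and Rbm8a, of the exon junction complex, was lower by 1.12, with medians of 12.2 and 26.1 FPKM. Of 12 genes for proteins of snoRNA particles, 2 were higher and 1 lower, against the same shares. Nop56, a core protein of box C/D particles, was at 96.2 to 678 FPKM in mMSCs and 8.66 to 90.7 FPKM in HL1cm, a difference of 2.84, and its ranges did not overlap, as for 2.26% of all genes with every mMSC above every HL1cm. Dkc1, the pseudouridine synthase of H/ACA particles, was higher by 1.26, and Gar1, of the same particles, was lower by 1.49 but above 0 in only 4 mMSCs.

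Gas5 is known as a gene of the 5′ terminal oligopyrimidine (TOP) class, to which many genes of translation belong. Of 14 such genes other than those of ribosomal proteins, 4 were at least 2-fold higher and 1 lower in mMSCs, with a median difference of 0.69, against 21.4%, 21.6% and 0.084 over all genes. Tpt1, or translationally controlled tumour protein, had medians of 1867 and 561 FPKM, a difference of 1.52. Eif3h, of an initiation factor complex, and Nap1l1, a histone chaperone gene, were higher by 1.41 and 1.06, and Eif4b was lower by 2.00. In the same cells Gas5 differed by 0.81. Against single cells, counts of genes 2-fold lower and higher in mMSC-PC (17.5% and 22.7% of all genes) were as follows. Paraspeckle protein genes gave 3 and 2 of 15, decay factors 5 and 0 of 12 and snoRNA particles 1 and 0 of 12. TOP genes gave 3 and 2 of 14 and the Meg3 and H19 list 4 and 0 of 8. Other long noncoding genes gave 6 and 2 of 16. In HL1cm-PC (11.4% and 33.4%) the first 3 of these gave 3 and 5, 5 and 2, and 2 and 2. The rest gave 0 and 5, 0 and 3, and 3 and 4.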

How the data were processed

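RNA-seq values of 23 libraries were used, of 16 single mMSCs, 5 single HL1cm and 1 population control of each. The authors made cDNA (SMARTer kit) and sequencing libraries (Nextera XT), mapped reads on mm10 using Tophat 2.0.12, estimated abundance with Cufflinks 2.2.1 under default options, and deposited FPKM values (fragment numbers scaled by exon length and by all mapped fragments), which were used without rescaling. Cufflinks shares reads among overlapping transcripts, so overlapping genes can take reads from each other. Low values did not fall on steps of whole reads, so counts could not be recovered and no count model was run. The depth of each library was judged by the 5th percentile of its FPKM above 0, and no interval for an FPKM value could be given.

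Before logs were taken, 1 FPKM replaced any smaller value, and a gene was compared if it reached 1 FPKM in 2 single cells or more. Differences of at least 2-fold and ranges that did not overlap were counted over all such genes and over the members. Each cell type was 1 sample, so no test was made. Intervals for shares of cells are exact (Clopper-Pearson, 95%). Members and lists were chosen with earlier results of these data known. From each list at most 4 genes are named, those past 2-fold with the largest difference and a mean of at least 10 FPKM in a cell type, plus Dlk1, Rtl1, Rian, Mirg and Igf2. For each member that reached 1 FPKM in 8 mMSCs or more, the 3 genes with the highest Pearson correlation are named. Tbp was named after its values were seen. Alternatives changed the floor, the filter, the scaling, the fold limit and the cells included. The calculations of differences between cell types and of likeness were tested on simulated data. Shifts of known size were placed in genes of high level only, and ratios to population controls were not simulated. The scripts ran on Python 3.11.15 (packages: numpy 2.4.6; pandas 2.3.3). Intervals came from scipy 1.17.1, and figures were drawn in matplotlib 3.10.9.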

Additional observations from a re-analysis of the deposited data

Results flagged for a closer look

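Gas5 in single HL1cm was flagged because its lowest cell, HL1cm5 at 18.1 FPKM, stood apart from the other 4, which were between 39.3 and 50.2 FPKM. On the log2 scale its gap to the nearest cell was 0.76 of the range of the 5 cells, above Dixon's limit of 0.71 for 5 values. Chance flags about 1 in 20 groups by this limit.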

How the results depend on the processing

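The sign of the difference between mMSCs and HL1cm was kept for Malat1 (1.97 to 2.78), Snhg3 (-1.79 to -3.04), Gas5, Snhg1 and Snhg8 under every alternative run, while that of Neat1 lay between -0.19 and 1.97. The difference of Meg3 lay between 0, reached with the median of the cells, and 1.28. The counts moved more, as did those of all genes. Members higher in mMSCs numbered 4 with a floor of 0.1 FPKM (32.2% of all genes) or with the limit at 1.5-fold in place of 2-fold (31.7%), 3 with Gapdh scaling (25.6%), with the median of the cells (21.3%) or without the 5 libraries of high low tail (23.0%, added after the data were seen), and 2 with a common FPKM sum (25.5%), and 21.4% of all genes were higher in the settings reported. Without the 5 libraries the members were Malat1, Neat1 (1.03) and Gas5 (1.20). Those libraries hold the mMSCs with Neat1 listed at 0 and both low Gas5 cells, so leaving them out had to raise Neat1 and Gas5. Leaving out single cells gave 1 or 2 members higher, with 2 without HL1cm1, HL1cm2, HL1cm4, mMSC7, mMSC12, mMSC13 or mMSC15. Members lower in mMSCs numbered 2 with the limit at 1.5-fold (30.1% of all genes), and 1 to 2 when single cells were left out, 2 being reached without HL1cm3. In mMSC-PC, 3 members were lower with the median of the cells or with a limit of 4-fold and 6 with Gapdh scaling or a limit of 1.5-fold. The median log2 ratio of all genes moved too, from 0 to 0.41 with the median of the cells and -0.88 with Gapdh scaling. These counts therefore do not describe the members alone. In mMSC-PC, 0 members were higher with a floor of 10 FPKM, Gapdh scaling, a limit of 4-fold or without the 5 libraries. These 5 are the libraries with Neat1 listed at 0, so leaving them out had to lower its ratio. In HL1cm-PC, 1 was lower with a common FPKM sum, the median or a limit of 4-fold and 3 with Gapdh scaling, a common median or a limit of 1.5-fold, and 2 were higher with the median. The median log2 ratio of all genes, 0.34 in the settings reported, was 0.85 with a common FPKM sum and 0.76 with the median of the cells. It was 0 with Gapdh scaling or a common median, so these counts too do not describe the members alone. Leaving out single HL1cm gave 1 to 3 lower (1 without HL1cm2 or HL1cm4, 3 without HL1cm5) and 1 to 2 higher (2 without HL1cm3). The other noncoding genes gave 2 higher and 1 lower with a floor of 10 FPKM (7.44% and 7.69% of all genes), and 4 higher with a limit of 4-fold (8.77%). The Neat1 ratio of mMSC-PC to single mMSCs was reversed to -0.38 under Gapdh scaling. That scaling also lowered the median ratio of all genes from 0 to -0.88, so the change of sign is not particular to Neat1. Apart from the counts without the 5 libraries, the cause was not tested. The median difference of all genes moved from 0.084 to 0.24 with a common FPKM sum and to 0.23 with Gapdh scaling. The share of all genes higher and lower moved from 21.4% and 21.6% to 25.5% and 17.9% with a common FPKM sum. In some libraries of both cell types 1 row made up most of that sum, as in mMSC8 (1260000 of 2017000 FPKM) and HL1cm5 (1350000 of 1866000 FPKM). The median sum was 838800 FPKM in mMSCs and 1673000 FPKM in HL1cm. The part of such rows in these shifts was not tested. No paired analysis was possible because the results come from no test and cells of the 2 types share only a number.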
